A study of Mus musculus with 8 samples.

Results

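The comparison described here sets C2C12 myoblasts carrying an shRNA against Baf250A beside C2C12 myoblasts carrying a scramble shRNA, and it was chosen by the sample labels alone: the 2 libraries of each group, 4 of the 8 libraries of the series. C2C12 is an established mouse myoblast line, obtained from ATCC, that was kept sub-confluent in serum and therefore proliferating. Every group, the scramble included, was transduced with lentivirus and selected and maintained in puromycin, and the other 4 libraries carried an shRNA against Brd9 or Baf180. Total RNA was extracted with TRIzol and sequenced on a BGISEQ-500 at the Beijing Genomics Institute. The column names give 1 shRNA for Baf250A (s06), so an effect of that sequence on another gene cannot be told apart from loss of Baf250A, and the labels do not say how many control sequences stand behind the scramble. Whether the paired libraries of each group are separate cultures is not stated, and the p-values therefore describe the spread of these libraries alone, possibly a technical one. In bulk RNA, fewer cells that express a gene and less of its RNA per cell cannot be told apart.

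Baf250A is the protein of the gene Arid1a. It is the large DNA-binding subunit that defines canonical BAF, a form of the mammalian SWI/SNF family of chromatin remodellers, which use ATP to slide and evict nucleosomes and keep many enhancers open. Arid1b encodes its alternative in the same complex, Brd9 belongs to the non-canonical form, and Baf180, encoded by Pbrm1, belongs to PBAF. In muscle, SWI/SNF enzymes are known as partners of MyoD at genes that are switched on as myoblasts differentiate, and the comparison addresses how RNA levels differ in dividing myoblasts when the canonical form loses this subunit.

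Estimated counts of 12420 genes that passed a filter on low counts were compared by edgeR's quasi-likelihood test, with p-values adjusted by Benjamini-Hochberg, and a gene is named "called" at an adjusted p below 0.05. Levels are in CPM, counts relative to the library size adjusted by TMM, edgeR's scaling between libraries, and fold changes are on the log2 scale, Baf250A over scramble. Library totals ran from 17763062 to 20400855 counts over the 8 libraries. The libraries differed along the GC content of transcripts, and scramble replicate 2 had a count for 16402 genes against 14195 to 14768 in each other library. In the text "rose" and "fell" are therefore kept for genes called in the same direction in all 6 fits: the fit above, a fit with offsets per library that remove the trends with GC content and gene length, and the 4 fits that leave out 1 of the 4 libraries compared. Of the tested genes 1926 were called higher (15.5%) and 1743 lower (14.0%). In all 6 fits 368 rose (2.96%) and 531 fell (4.28%), and with the offsets alone 2167 were higher (17.4%) and 2247 lower (18.1%). Of the 899 genes that rose or fell, 344 rose and 457 fell by at least 2-fold, and 53 rose and 81 fell by at least 8-fold. Both Baf250A libraries lay beyond both scramble libraries for all 899, as they did for 75.8% of the genes tested.

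Arid1a (chromosome 4, 133679008 to 133756769, GRCm38, the assembly also called mm10) was lower in the libraries labelled with its shRNA. Its counts were 2834 and 2720 with the scramble, 1335 and 1243 with Baf250A, 3618 and 3215 with Brd9 and 2747 and 3269 with Baf180 shRNA. In CPM it fell 2.41-fold, from 159 and 157 to 67.1 and 64.2 (log2 fold change −1.27, SE 0.12, adjusted p = 0.000184). Among the subunits that define the forms of SWI/SNF, 11 were tested and only Arid1a passed all 6 fits. Arid1b stood at 55.8 and 61.2 CPM in the scramble and 67.3 and 68.2 CPM in the Baf250A libraries; the groups did not overlap, but the difference was not called (log2 fold change 0.21, SE 0.12, adjusted p = 0.205). Dpf2, the zinc-finger subunit of canonical BAF, was called lower (log2 fold change −0.70, SE 0.14, adjusted p = 0.00834), though not in all 6 fits. Pbrm1 and Arid2 of PBAF were called higher, at 0.89 (adjusted p = 0.0211) and 0.72 (adjusted p = 0.0455). Both calls ended with the offsets, at 0.14 (adjusted p = 0.249) and 0.24 (adjusted p = 0.0692). The ncBAF subunit Brd9 was close to the scramble level (0.09, SE 0.14). Of 15 subunits shared between forms, 1 fell: Smarcd3, the BAF60C subunit of striated muscle complexes, went from 81.9 and 84.6 to 41.3 and 31.9 CPM (log2 fold change −1.18, SE 0.21, adjusted p = 0.00401). The ATPase Smarca4 stood at 564 and 576 against 498 and 441 CPM (log2 fold change −0.28, SE 0.16, adjusted p = 0.195).

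The 12 largest rises were taken where the mean reached 5 CPM and both Baf250A libraries lay beyond both scramble libraries. They were in secreted, matrix and inflammatory genes for the most part. Col2a1, the type II collagen of cartilage, went from 0.168 and 0.462 CPM in the scramble libraries to 34.8 and 28.3 CPM in the Baf250A libraries (log2 fold change 6.62, SE 0.37, adjusted p = 1.31e-05), and without scramble replicate 2 its log2 fold change was 7.49. Ptx3, a secreted pentraxin of innate immunity, rose from 8.37 and 8.26 to 126 and 132 CPM (log2 fold change 3.95, SE 0.19, adjusted p = 7.27e-06). Lrrc32, which holds latent TGF-beta on the cell surface, rose from 6.12 and 6.94 to 96.4 and 82.3 CPM (log2 fold change 3.77, SE 0.18, adjusted p = 7.27e-06). In these genes both Baf250A libraries were high and both scramble libraries low, with a wide gap between the groups. U90926, a gene named only by its sequence record, rose from 3.93 and 3.12 to 91.5 and 99.6 CPM (log2 fold change 4.76, SE 0.32, adjusted p = 2.94e-05). Lpl, the lipoprotein lipase, rose by 3.77 (SE 0.37) and Sfrp2, a secreted Wnt modulator, by 3.83 (SE 0.31). Coch, Lama4, Il1rn, Ptgfr, Pi15 and Ccl9 complete the set, with log2 fold changes from 3.43 to 5.84. Pi15 differed between the scramble libraries, at 0.393 and 1.96 CPM, and its log2 fold change of 4.31 was 2.74 with the offsets, 3.57 without scramble replicate 1 and 5.87 without scramble replicate 2. Ptgfr and Ccl9 stood at 3.44 and 2.80 with the offsets.

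Genes of neurons and of muscle made up most of the 12 largest falls. Igfbp2, a secreted binding protein for insulin-like growth factors, fell from 862 and 831 CPM to 32.7 and 27.1 CPM, 28.3-fold (log2 fold change −4.82, SE 0.20, adjusted p = 3.35e-06). Osbp2, a sterol-binding protein, fell from 125 and 121 to 5.18 and 4.44 CPM (log2 fold change −4.67, SE 0.16, adjusted p = 1.37e-06). Gap43, the growth cone protein, fell from 40.2 and 33.8 to 1.06 and 1.55 CPM (log2 fold change −4.82, SE 0.27, adjusted p = 1.26e-05). Each of these 3 genes was low in both Baf250A libraries and high in both scramble libraries, a separation that the choice of the 12 required. Sema6a, a transmembrane semaphorin, fell from 24.3 and 20.9 to 0.754 and 1.24 CPM (log2 fold change −4.50, SE 0.27, adjusted p = 1.46e-05), and Lrrn1, a leucine-rich neuronal membrane protein, from 21.1 and 16.9 to 0.553 and 1.03 CPM (log2 fold change −4.57, SE 0.34, adjusted p = 4.55e-05). Stmn4, a neuronal stathmin, had 2 counts in the Baf250A libraries together against 1522, a ratio of 0.00118 (exact 95% counting interval 0.000142 to 0.00425). St8sia2, which adds polysialic acid to NCAM, had 1 count against 456, a ratio of 0.00196 (exact 95% counting interval 4.96e-05 to 0.0110). Such intervals cover counting error only. Ngfr, Xirp1, Rnf144b, Dok7 and Nefl complete the falls, with log2 fold changes from −5.79 to −4.48.

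**Figure D1:**
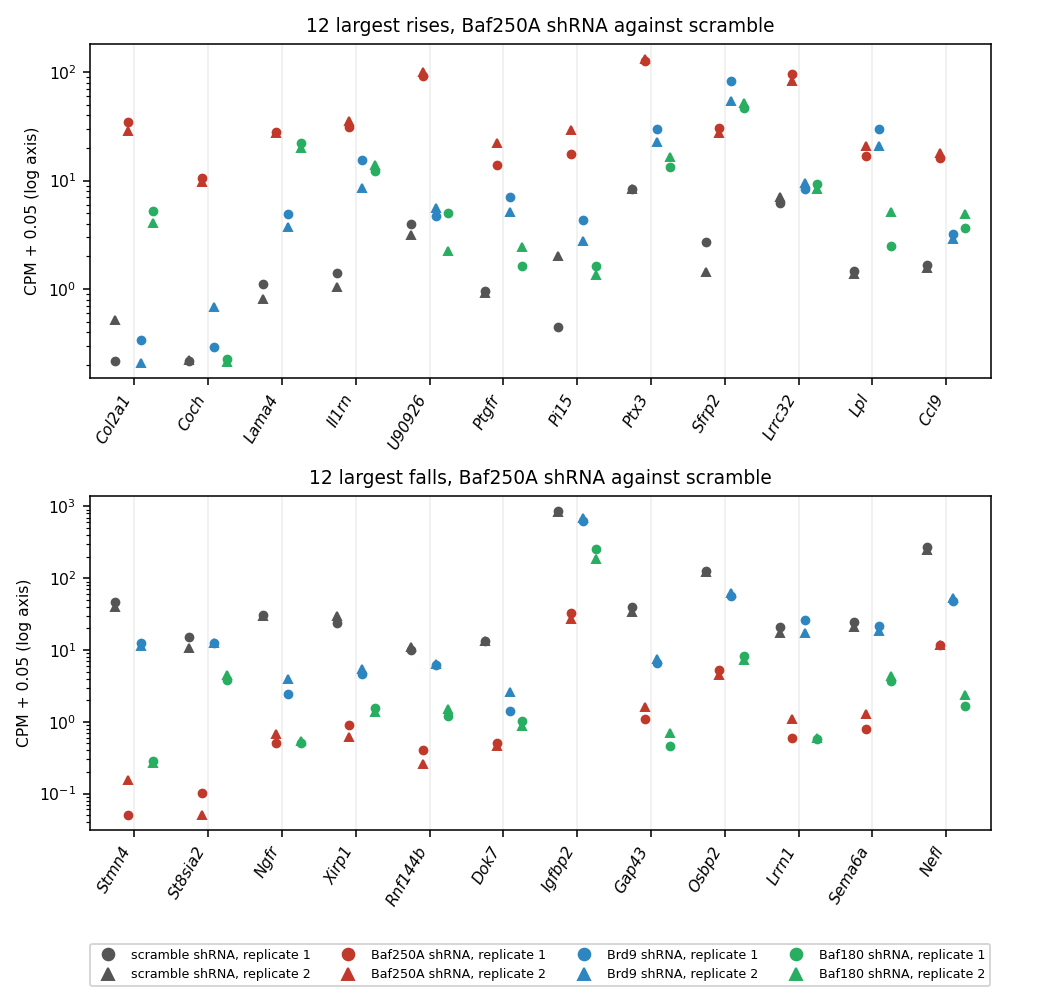
Level of the 12 genes that rose most and the 12 that fell most, in CPM plus 0.05 on a log axis, with 1 point per library and a colour per shRNA. The Baf250A libraries stand apart from the scramble libraries for each gene, as the choice of genes required. For Lrrc32, U90926 and Igfbp2 they stand apart from the Brd9 and Baf180 libraries too. Of the 12420 genes tested, both Baf250A libraries lay above all 6 other libraries in 2099 and below them in 2404.

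Genes of the neuromuscular synapse, the contact at which motor neurons signal to muscle through acetylcholine receptors, held more falls than rises. Of 21 tested, 7 fell and 1 rose, against 4.28% and 2.96% of all tested genes. The median was −0.41 and −0.17 with the offsets, 11 members were called lower and 3 higher, and 10 and 4 with the offsets. Among all tested genes 14.0% were called lower and 15.5% higher, and 18.1% and 17.4% with the offsets. The 7 that fell are the list's 4 tested receptor subunits and 3 parts of the machinery that clusters them. The promoters of 3 receptor or synapse genes that fell and hold the E-box CAGCTG, and of 1 receptor gene that fell and does not hold it, are shown because myogenic factors of the MyoD family bind E-boxes. They are RefSeq promoters on GRCm38.p6, from 250 bases before to 50 after the gene's start, written 5′ to 3′ on the gene's strand, with capitals for each match to CAGCTG.
Chrna1 (chr2:73580289-73580588, minus strand): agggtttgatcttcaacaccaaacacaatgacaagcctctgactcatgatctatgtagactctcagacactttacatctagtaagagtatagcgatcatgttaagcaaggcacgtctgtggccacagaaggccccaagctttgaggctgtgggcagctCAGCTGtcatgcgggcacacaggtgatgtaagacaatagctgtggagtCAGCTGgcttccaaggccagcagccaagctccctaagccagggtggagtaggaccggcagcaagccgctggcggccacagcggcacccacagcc
Chrng (chr1:87205561-87205860, plus strand): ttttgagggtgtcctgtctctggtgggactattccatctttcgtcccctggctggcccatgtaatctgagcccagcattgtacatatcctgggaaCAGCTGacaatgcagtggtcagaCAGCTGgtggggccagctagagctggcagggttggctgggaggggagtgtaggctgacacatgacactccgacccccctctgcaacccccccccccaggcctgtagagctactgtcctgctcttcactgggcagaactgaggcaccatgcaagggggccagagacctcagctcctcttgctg
Musk (chr4:58285712-58286011, plus strand): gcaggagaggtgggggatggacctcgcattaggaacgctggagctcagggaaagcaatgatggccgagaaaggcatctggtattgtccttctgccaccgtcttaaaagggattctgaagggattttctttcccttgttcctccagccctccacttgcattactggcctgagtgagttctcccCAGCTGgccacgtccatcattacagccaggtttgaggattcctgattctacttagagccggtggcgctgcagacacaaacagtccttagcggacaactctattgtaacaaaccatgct
Chrnb1 (chr11:69795888-69796187, minus strand): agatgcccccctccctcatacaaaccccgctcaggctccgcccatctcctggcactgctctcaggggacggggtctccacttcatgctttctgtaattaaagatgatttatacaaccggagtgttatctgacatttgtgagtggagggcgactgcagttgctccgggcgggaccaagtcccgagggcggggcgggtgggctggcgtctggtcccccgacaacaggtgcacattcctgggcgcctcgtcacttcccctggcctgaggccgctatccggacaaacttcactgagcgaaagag
Chrna1 and Chrng each hold 2 matches, Musk holds 1 and Chrnb1 holds none. CAGCTG reads the same on both strands, and each motif was counted on its own whether or not it overlapped another. It was found in 6 of the 13 promoters of this list that the table holds (46.2%), in 14.7% of the promoters of tested genes and in 16.1% of all promoters of that length in the table. Of the 6 genes with a match, 3 fell (Chrna1, Chrng and Musk) and 3 were not called in all 6 fits (Crkl, Etv5 and Prkar1a). A match describes these letters only and is not a measured binding site.

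The receptor subunits fell by unequal amounts. Chrna1, the alpha subunit that binds acetylcholine (chromosome 2, 73563281 to 73580338), had 302 and 302 CPM in the scramble libraries and 16.1 and 15.8 CPM in the Baf250A libraries (log2 fold change −4.24, SE 0.15, adjusted p = 1.37e-06). Chrnd, the delta subunit, fell from 29.1 and 30.2 to 1.56 and 1.39 CPM (log2 fold change −4.32, SE 0.23, adjusted p = 1.22e-05). Chrnb1, the beta subunit, fell from 55.2 and 57.3 to 19.4 and 23.2 CPM (log2 fold change −1.40, SE 0.14, adjusted p = 0.000239). The fitted fall was deeper for the alpha and delta subunits than for the beta subunit, a difference that was not tested. The groups did not overlap in any of them, as in all genes that fell. Chrng, the gamma subunit of the fetal receptor, had 2 counts against 48, a ratio of 0.0373 (exact 95% counting interval 0.00439 to 0.142). Among the clustering proteins, Dok7, the cytoplasmic activator of MuSK, fell from 13.4 and 13.2 to 0.453 and 0.413 CPM (log2 fold change −4.92, SE 0.35, adjusted p = 4.07e-05). The receptor kinase Musk (log2 fold change −1.46, SE 0.22) and Rapsn, the scaffold beneath the receptors (−1.04, SE 0.19), fell with adjusted p-values of 0.00182 and 0.00483. Lrp4, the agrin receptor that acts through MuSK, rose from 13.5 and 14.0 to 29.8 and 26.0 CPM (log2 fold change 1.02, SE 0.14, adjusted p = 0.00126).

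Results for the factors that specify myoblasts were mixed. Of 26 myogenic and progenitor genes 4 fell and 3 rose, and their median log2 fold change was 0.00 and −0.09 with the offsets. Myod1, the myogenic determination factor, had 154 and 157 CPM in the scramble and 129 and 101 CPM in the Baf250A libraries (log2 fold change −0.43, SE 0.18, adjusted p = 0.0925), and 0.00 with the offsets. Myf5, the other determination factor of myoblasts, was called lower at 22.2 and 28.0 against 11.9 and 15.9 CPM (log2 fold change −0.86, SE 0.25, adjusted p = 0.0331; −1.55 with the offsets), but not in all 6 fits. Myog and Mef2c, which act as differentiation begins, had next to no RNA in either group: Myog had 0.225 and 0.231 CPM in the scramble and 0.101 and 0.361 CPM in the Baf250A libraries, and Mef2c had 1 to 3 counts per library and was not tested.

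Several markers of the myoblast state were lower. Of 10 myoblast identity markers 4 fell and 1 rose, with a median of −0.71 (−0.88 with the offsets). Cdh15, the M-cadherin of myoblasts, fell from 168 and 165 to 34.2 and 26.2 CPM (log2 fold change −2.46, SE 0.20, adjusted p = 8.29e-05). Itga7, the laminin receptor of muscle, fell from 280.4 and 283 to 75.2 and 59.7 CPM (log2 fold change −2.06, SE 0.18, adjusted p = 0.000119). Pax7, the satellite cell factor, fell from 3.20 and 2.77 to 0.905 and 0.207 CPM (log2 fold change −2.40, SE 0.44, adjusted p = 0.00528); its log2 fold change was −3.75 without Baf250A replicate 1 and −1.66 without Baf250A replicate 2. In all 3 genes each Baf250A library was below each scramble library, as in all genes that fell. Msc, a bHLH repressor found in myoblasts, had 0 counts in both Baf250A libraries and 181 in the scramble libraries, and with a floor of 3 counts per library it was at least 33.8-fold lower. Vcam1, an adhesion molecule of myoblasts, rose from 57.2 and 53.8 to 109 and 122 CPM (log2 fold change 1.06, SE 0.14, adjusted p = 0.00109), and Boc, a cell surface co-receptor that promotes myogenesis, from 8.93 and 10.3 to 35.9 and 31.4 CPM (log2 fold change 1.80, SE 0.16, adjusted p = 0.000118). Igf2, the growth factor that myoblasts make as they differentiate, had 0 and 4 counts in the scramble libraries and 108 and 133 in the Baf250A libraries, and its fitted log2 fold change of 5.67 moved between 4.70 and 9.86 when a scramble library was left out.

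Structural genes of striated muscle were lower more often than higher. Of 39 tested 9 fell and 3 rose (median −0.56, −0.41 with the offsets). Actn3, the alpha-actinin of fast fibres, fell from 70.9 and 65.7 to 5.63 and 4.34 CPM (log2 fold change −3.77, SE 0.22, adjusted p = 1.4e-05). Synpo2l, an actin-binding protein of the Z-disc, fell from 8.09 and 10.9 to 0.302 and 0.361 CPM (log2 fold change −4.81, SE 0.33, adjusted p = 3.53e-05), and Xirp1, another actin-binding protein of muscle, from 24.0 and 29.5 to 0.855 and 0.568 CPM (log2 fold change −5.22, SE 0.28, adjusted p = 1.22e-05). Cacng1, a subunit of the muscle calcium channel (−2.39, SE 0.23), and Actc1, the cardiac actin that embryonic muscle also makes (−1.62, SE 0.30), fell as well. Among the 3 that rose, Fbxo32, the ubiquitin ligase atrogin-1 of muscle atrophy, went from 25.2 and 25.6 to 108 and 139 CPM (log2 fold change 2.28, SE 0.20, adjusted p = 9.36e-05), and Acta1, the skeletal actin, rose by 1.20 (SE 0.20). The list therefore held changes in both directions, with no overlap between the groups in any gene named here, as in all genes that rose or fell.

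**Figure D2:**
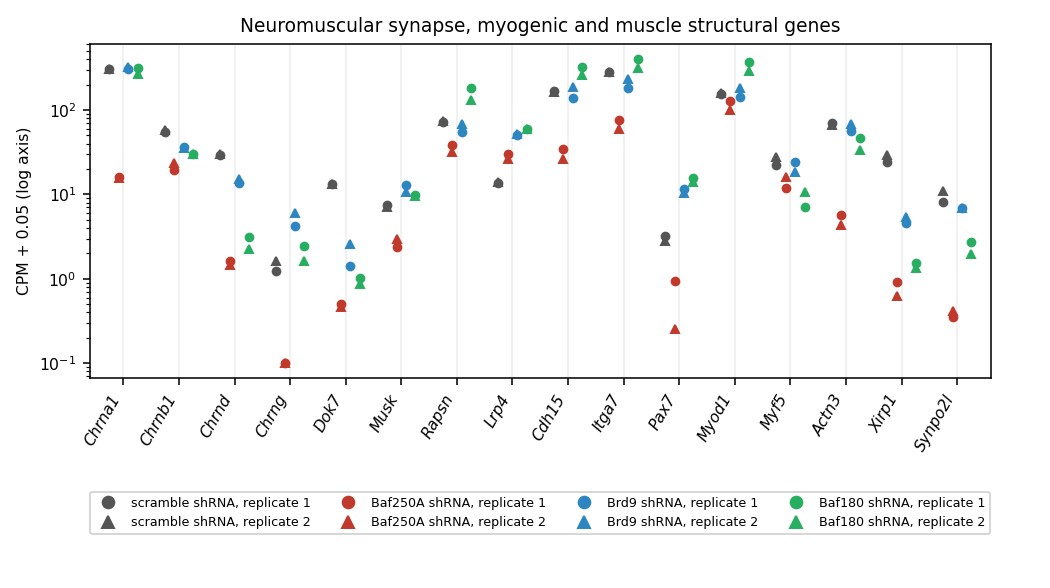
Level of 16 genes of the neuromuscular synapse, the myoblast state and muscle structure, in CPM plus 0.05 on a log axis, with 1 point per library and a colour per shRNA. For Chrna1 and Actn3 the Baf250A libraries lie below the libraries of all 3 other groups, as in 2404 of the 12420 genes tested. For Dok7 and Xirp1 the Brd9 and Baf180 libraries lie below scramble as well.

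Proliferating C2C12 myoblasts of the scramble line carried RNA of many genes best known from neurons, and these were lower with the Baf250A shRNA. Of 37 genes of the neuronal cytoskeleton and of vesicles, 14 fell and 2 rose (median −0.76, −0.62 with the offsets). Nefl, the neurofilament light chain, fell from 273 and 246 to 11.8 and 11.5 CPM (log2 fold change −4.48, SE 0.17, adjusted p = 1.95e-06), and Nefm, the medium chain, from 150.4 and 131 to 19.4 and 19.5 CPM (log2 fold change −2.85, SE 0.18, adjusted p = 1.55e-05). Tubb3, the beta-tubulin of neurons, fell from 147 and 143 to 12.2 and 11.4 CPM (log2 fold change −3.62, SE 0.21, adjusted p = 1.4e-05). The filament and tubulin genes were thus low in both Baf250A libraries, with replicate values close to each other in each group. Stmn2, a stathmin that binds tubulin dimers, fell from 144 and 133 to 19.2 and 19.7 CPM (log2 fold change −2.83, SE 0.15, adjusted p = 1.11e-05). Crmp1, a mediator of growth cone collapse, had 2 counts against 331, a ratio of 0.00541 (exact 95% counting interval 0.000652 to 0.0197), and Map2, the dendritic microtubule protein, 1 count against 62, a ratio of 0.0144 (exact 95% counting interval 0.00036 to 0.0834). Smaller falls were those of Uchl1 (−2.54), Tubb2b (−1.60) and Basp1 (−1.05). The 2 members that rose were Dclk1, a doublecortin-like kinase (1.68, SE 0.22), and Nsg1, an endosomal protein of neurons (1.56, SE 0.12).

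Receptors and adhesion molecules of neurons followed with 7 falls and 2 rises among 18 tested (median −0.32, −0.18 with the offsets). Ngfr, the p75 neurotrophin receptor, fell from 30.5 and 29.3 to 0.453 and 0.620 CPM (log2 fold change −5.79, SE 0.32, adjusted p = 1.26e-05). L1cam, an adhesion molecule of axons, fell from 26.2 and 21.7 to 2.06 and 1.497 CPM (log2 fold change −3.74, SE 0.25, adjusted p = 2.27e-05), and Cadm1, a synaptic adhesion molecule, from 26.6 and 27.3 to 4.73 and 4.80 CPM (log2 fold change −2.50, SE 0.18, adjusted p = 4.07e-05). Cadm4 (−3.39, SE 0.25) and Gfra2, a co-receptor for neurturin (−3.07, SE 0.29), fell as well. Rises were those of Bdnf, a neurotrophin (2.16, SE 0.21), and Gfra4 (2.62, SE 0.29). Axon guidance genes were mixed, with 7 of 48 lower and 4 higher. The 7 that fell were Sema6a, Sema4d (−3.29), Epha4 (−2.20), Ephb6 (−1.49), Ephb2 (−1.05), Efna1 (−1.45) and the semaphorin receptor Plxnb1 (−1.48). The secreted Slit2 rose from 18.5 and 20.1 to 53.1 and 69.1 CPM (log2 fold change 1.66, SE 0.20, adjusted p = 0.000637), and the secreted Sema3a (1.51) and Sema3f (2.11) and the netrin receptor Unc5c (1.67) rose as well. Of the other secreted semaphorins Sema3b (−0.99) and Sema3e (−0.65) were called lower, though not in all 6 fits. Of 17 voltage-gated and related channels, 2 fell, among them Kcnn4, a calcium-activated potassium channel (−1.17, SE 0.21).

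Genes of cholesterol synthesis and uptake were lower. Cells make cholesterol from acetyl-CoA by the mevalonate pathway, whose genes are driven by the factor SREBP2 when membranes run short of sterol. Of 30 tested 8 fell and 1 rose, and the median was −0.71 (−0.58 with the offsets). Called lower were 17 and higher 1, against 14.0% and 15.5% of all tested genes. Srebf2, the gene of SREBP2 itself, fell from 449 and 447 to 223 and 192 CPM (log2 fold change −1.11, SE 0.17, adjusted p = 0.00194). Fdps, which makes farnesyl diphosphate, fell from 215 and 219 to 65.1 and 56.7 CPM (log2 fold change −1.83, SE 0.20, adjusted p = 0.000328). The next steps toward sterols were lower too: Fdft1, squalene synthase (−1.03), Sqle, squalene epoxidase (−0.75), Lss, lanosterol synthase (−1.29), and the later enzymes Nsdhl (−1.29) and Tm7sf2 (−1.72), with SE from 0.12 to 0.32. Hmgcs1, the synthase of an early step, stood at 69.8 and 56.3 against 49.8 and 72.0 CPM (log2 fold change −0.05, SE 0.25, adjusted p = 0.89), with overlapping groups. With the offsets it was called lower, at −0.59 (adjusted p = 0.00297). Npc1, which exports sterol from lysosomes, fell (−0.93, SE 0.15). Abca1, the pump that sends cholesterol out of cells, rose from 0.168 and 0.231 to 2.01 and 3.72 CPM (log2 fold change 3.799, SE 0.59, adjusted p = 0.00223). The sterol element searched, TCACNCCAC on either strand, was found in 1 of the 19 promoters of the cholesterol list in the table (5.26%), in 1.04% of the promoters of tested genes and in 1.22% of all promoters. Of 20 genes of fatty acid synthesis, the desaturases Fads1 (−0.79, SE 0.13) and Fads2 (−1.41, SE 0.17) fell and the phosphatidate phosphatase Lpin1 rose (1.24, SE 0.20).

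Inflammatory mediators were the list with the highest median. Of 33 chemokines, cytokines and related genes tested, 16 rose and 1 fell, against 2.96% and 4.28% of all tested genes, and the median was 1.63 (1.33 with the offsets). The summed level of the list was 1223 and 1187 CPM in the scramble libraries and 3815 and 3994 CPM in the Baf250A libraries. With the other shRNAs it was above scramble as well, at 2145 and 1992 CPM (Brd9) and 1982.5 and 2179 CPM (Baf180). The promoters of 3 members that rose and hold the motif TGANTCA are shown. Many cytokine genes are driven by AP-1, a dimer of Fos and Jun family proteins that binds this motif. Build, window and strand are as for the promoters above, and capitals mark each match to TGANTCA, which reads the same on both strands.
Il1rn (chr2:24336610-24336909, plus strand): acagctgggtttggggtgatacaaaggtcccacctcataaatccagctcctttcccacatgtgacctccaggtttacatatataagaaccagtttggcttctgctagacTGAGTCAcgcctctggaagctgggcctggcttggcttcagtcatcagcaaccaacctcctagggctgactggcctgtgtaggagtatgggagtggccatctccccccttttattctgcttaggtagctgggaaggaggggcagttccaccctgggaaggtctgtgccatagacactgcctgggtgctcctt
Il6 (chr5:30012864-30013163, plus strand): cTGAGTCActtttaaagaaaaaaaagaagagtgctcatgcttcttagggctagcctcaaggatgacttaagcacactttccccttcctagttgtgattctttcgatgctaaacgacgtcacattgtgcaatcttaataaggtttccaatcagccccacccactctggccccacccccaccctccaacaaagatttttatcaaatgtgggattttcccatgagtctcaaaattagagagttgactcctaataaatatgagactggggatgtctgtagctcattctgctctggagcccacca
Lif (chr11:4257318-4257617, plus strand): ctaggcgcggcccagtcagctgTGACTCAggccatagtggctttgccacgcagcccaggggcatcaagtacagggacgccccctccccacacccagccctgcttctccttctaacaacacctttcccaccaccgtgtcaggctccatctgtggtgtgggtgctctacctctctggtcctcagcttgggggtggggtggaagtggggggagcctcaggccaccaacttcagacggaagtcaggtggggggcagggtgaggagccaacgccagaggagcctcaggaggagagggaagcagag
A match was found in 8 of the 25 promoters of this list in the table (32.0%), in 4.88% of the promoters of tested genes and in 7.93% of all promoters. Of the 8 genes with a match 5 rose (Ccl9, Il1rn, Il6, Lif and Osmr), 1 fell (Tnfaip3) and 2 were not called in all 6 fits (Cxcl10 and Tnfaip6). Another 8 members that rose and have a promoter in the table held no match. The E-box CAGCTG was also found in 8 of the 25 (32.0%). Among all genes that rose 7.01% of promoters held TGANTCA, and among all that fell 6.89%.

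Ligands led the inflammatory rises. Csf1, the macrophage growth factor, rose from 533 and 540.5 to 1758 and 1594 CPM (log2 fold change 1.64, SE 0.13, adjusted p = 6e-05). Cxcl5, a neutrophil-attracting chemokine, rose from 84.6 and 75.2 to 511 and 668 CPM (log2 fold change 2.88, SE 0.25, adjusted p = 0.000111; 1.76 with the offsets), and Ccl2, which attracts monocytes, from 63.1 and 51.6 to 226 and 309 CPM (log2 fold change 2.22, SE 0.22, adjusted p = 0.000195). In each of these genes the lower Baf250A library lay well above the higher scramble library, and in all genes that rose it lay above. Cxcl12, the ligand of CXCR4, rose from 52.2 and 49.3 to 213 and 232 CPM (log2 fold change 2.13, SE 0.18, adjusted p = 8.94e-05), Ccl7 by 2.12 (SE 0.15) and Cxcl1 by 1.85 (SE 0.13). The cytokine Lif rose from 5.73 and 6.88 to 23.9 and 23.8 CPM (log2 fold change 1.92, SE 0.18, adjusted p = 0.000171). Il6 and the chemokine Cxcl14 had almost no counts in scramble: 3 against 171 for Il6 and 2 against 111 for Cxcl14, ratios of scramble to Baf250A of 0.0196 (exact 95% counting interval 0.00401 to 0.0583) and 0.0201 (exact 95% counting interval 0.00241 to 0.0745). Il33, an alarmin, rose by 1.83 (1.24 with the offsets) and its receptor Il1rl1 by 3.23 (2.64 with the offsets). Osmr, the oncostatin M receptor, rose from 17.4 and 17.7 to 68.9 and 81.4 CPM (log2 fold change 2.10, SE 0.20, adjusted p = 0.000172), and Tnfrsf1b, a TNF receptor, by 1.11 (SE 0.13). Inhibitors went both ways. Il1rn, which blocks the IL-1 receptor, rose from 1.35 and 0.982 to 31.4 and 35.2 CPM (log2 fold change 4.83, SE 0.34, adjusted p = 3.65e-05), and Tnfaip3, the A20 brake on NF-kappaB, fell from 30.4 and 30.8 to 12.1 and 12.7 CPM (log2 fold change −1.30, SE 0.17, adjusted p = 0.00106).

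Complement, the cascade of serum proteases that marks targets for removal, rose in part, with 4 of 13 tested genes higher and 0 lower (median 0.57, 0.68 with the offsets). Their summed level was 129 and 119 CPM in the scramble and 228 and 207 CPM in the Baf250A libraries. It was 235 and 231 CPM with Brd9 and 293 and 264 CPM with Baf180 shRNA. C1ra and C1s1, the proteases that start the classical pathway, rose from 13.0 and 11.04 to 50.6 and 45.2 CPM and from 2.64 and 2.14 to 14.3 and 15.2 CPM. C3, the central component, went from 2.86 and 1.91 to 17.1 and 11.6 CPM, with adjusted p-values of these 3 genes from 7.48e-05 to 0.000698. In prostaglandin and leukotriene synthesis 2 of 15 rose and 2 fell. The inducible cyclooxygenase Ptgs2 rose from 53.7 and 53.5 to 145 and 201 CPM (log2 fold change 1.69, SE 0.20, adjusted p = 0.000564; 0.72 with the offsets), while the constitutive Ptgs1 fell from 183 and 181 to 76.0 and 61.2 CPM (log2 fold change −1.41, SE 0.15, adjusted p = 0.000276). Alox5, which starts leukotriene synthesis, fell from 93.1 and 92.2 to 24.2 and 18.9 CPM (log2 fold change −2.10, SE 0.17, adjusted p = 6.87e-05), and the prostaglandin F receptor Ptgfr rose. Of 34 interferon-stimulated and antigen presentation genes 1 rose and 1 fell.

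Contractile genes of smooth muscle were higher. Of 23 tested 11 rose and 2 fell (median 0.74, 0.69 with the offsets). Acta2, the smooth muscle alpha-actin that proliferating myoblasts also make, rose from 3094 and 3121 to 8775 and 7402 CPM (log2 fold change 1.38, SE 0.17, adjusted p = 0.000748). Tagln, the actin-binding SM22, rose from 456 and 454 to 1387 and 1281 CPM (log2 fold change 1.55, SE 0.14, adjusted p = 0.000146), and Cnn1, calponin, from 36.2 and 34.0 to 189 and 177 CPM (log2 fold change 2.38, SE 0.15, adjusted p = 1.92e-05). Both Baf250A libraries were high in all 3 genes, and the groups did not overlap, as in all genes that rose. The gamma-actin Actg2 rose by 1.93 (SE 0.20), the regulatory light chain Myl9 by 1.53 (SE 0.16) and the myosin light chain kinase Mylk by 2.16 (SE 0.30). Lmod1, which nucleates actin filaments, rose from 6.12 and 4.74 to 26.0 and 23.3 CPM (log2 fold change 2.18, SE 0.18, adjusted p = 8.29e-05). Myh11, the smooth muscle myosin heavy chain, was low in both groups, at 0.112 and 0.289 against 2.87 and 3.36 CPM (log2 fold change 3.92, SE 0.50, adjusted p = 0.000838; 4.71 without scramble replicate 2). Pdgfrb, a receptor of pericytes and fibroblasts, rose by 1.15 (SE 0.13). The 2 falls were in membrane proteins of pericytes rather than in filament genes: Cspg4, the NG2 proteoglycan, went from 58.1 and 55.1 to 10.2 and 10.0 CPM (log2 fold change −2.49, SE 0.15, adjusted p = 1.46e-05) and Mcam fell as well (−0.86, SE 0.13). The CArG box, which serum response factor binds, was found in 3 of the 19 promoters of this list in the table (15.8%), and in 1.31% of the promoters of tested genes. Of the 3 genes with a match Myl9 rose, and Srf and Cnn2 were not called in all 6 fits. Of the 7 members that rose and have a promoter in the table, 6 held no match.

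**Figure D3:**
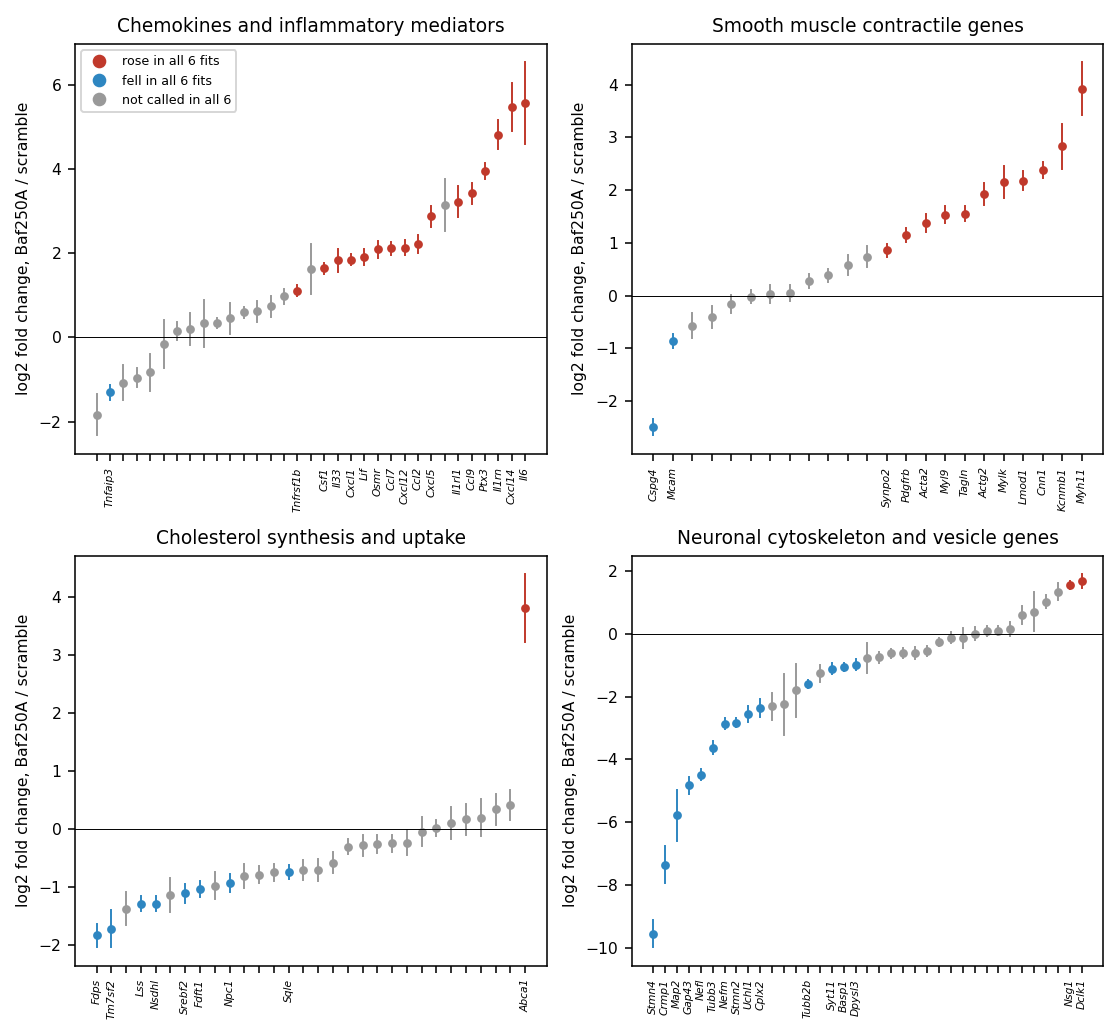
Log2 fold change, Baf250A over scramble, of each tested member of 4 gene lists, with bars of 1 standard error members in order of the value and names for those that rose or fell. Red points rose and blue points fell in all 6 fits: 16 and 1 of 33 inflammatory genes, 11 and 2 of 23 smooth muscle genes, 1 and 8 of 30 cholesterol genes, and 2 and 14 of 37 neuronal genes.

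Cartilage and bone genes had positive medians. Of 15 cartilage genes 2 rose and 0 fell (median 0.92, 0.74 with the offsets), namely Col2a1 and Col27a1, another cartilage collagen (1.91 and 2.02 to 5.48 and 5.99 CPM, log2 fold change 1.54, SE 0.26, adjusted p = 0.00356). The cartilage factor Sox9 was close to its scramble level (93.2 and 83.5 against 74.8 and 82.1 CPM, log2 fold change −0.17, SE 0.13, adjusted p = 0.334). Of 20 bone genes 5 rose and 2 fell (median 0.54, 0.67 with the offsets). Spp1, osteopontin, rose from 812 and 691 to 2795 and 3748 CPM (log2 fold change 2.12, SE 0.22, adjusted p = 0.00027). Tnfsf11, RANKL, the cytokine that drives osteoclast formation, had 0 counts in both scramble libraries and 58 in the Baf250A libraries, at least 8.65-fold higher with the floor of 3 counts per library. Tnfrsf11b, its decoy receptor osteoprotegerin, rose from 0.337 and 0.347 to 4.43 and 6.20 CPM (log2 fold change 3.93, SE 0.49, adjusted p = 0.000677). The ligand and its inhibitor were thus both higher. Enpp1, which makes the mineralisation inhibitor pyrophosphate, rose by 2.24 (SE 0.22), while Phospho1, a phosphatase that starts mineralisation, (−1.74, SE 0.22) and the homeobox factor Msx2 (−3.79, SE 0.54) fell.

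Matrix genes rose more often than they fell. The tested collagens summed to 3522 and 3374 CPM in the scramble and 5388 and 5033 CPM in the Baf250A libraries. Their sums were higher still with Brd9 (6151 and 5793 CPM) and Baf180 shRNA (8940 and 8621 CPM). Of 17 collagens 5 rose and 1 fell: Col6a3, a chain of the microfibrillar collagen VI, went from 269 and 269.7 to 661 and 595 CPM (log2 fold change 1.22, SE 0.12, adjusted p = 0.000225), Col12a1 rose by 1.19, Col5a2 by 0.94, Col6a2 by 1.34 and Col1a1 by 0.77, and Col7a1, of anchoring fibrils, fell (−1.87, SE 0.22). Basement membranes, the laminin sheets that surround muscle fibres, had 5 of 25 genes higher and 1 lower. Lama4, a laminin alpha chain of vessels and nerves, rose from 1.07 and 0.751 to 28.1 and 27.3 CPM (log2 fold change 4.92, SE 0.26, adjusted p = 1.11e-05). Lama1, an alpha chain of embryonic basement membranes, rose from 0.281 and 0.289 to 4.73 and 4.60 CPM (log2 fold change 4.001, SE 0.33, adjusted p = 7.97e-05), whereas Lama5 fell from 195 and 197 to 76.4 and 67.2 CPM (log2 fold change −1.45, SE 0.15, adjusted p = 0.000218). The laminin alpha chains therefore moved in different directions. Nid2, a nidogen that links laminin to collagen IV, rose from 69.9 and 62.1 to 232 and 219 CPM (log2 fold change 1.77, SE 0.13, adjusted p = 4.44e-05), and Npnt, an integrin ligand, by 1.31 (SE 0.13). Of 44 proteoglycans and matricellular genes 10 rose and 5 fell. Rises included Ogn, a small leucine-rich proteoglycan (2.83), Fbln5, of elastic fibres (1.42), and the crosslinking enzymes Lox (1.19) and Loxl3 (1.44), and falls Tnc, tenascin C (1393 and 1332 to 533 and 496 CPM, log2 fold change −1.41, SE 0.13, adjusted p = 0.000119), fibronectin, Fn1 (−1.04), and Loxl2 (79.5 and 75.5 to 17.4 and 17.97 CPM, log2 fold change −2.13, SE 0.13, adjusted p = 1.68e-05). Of 35 proteases and inhibitors 8 rose and 4 fell. The aggrecanases split, as Adamts5 rose by 2.60 (1.94 with the offsets) and Adamts4 fell from 23.8 and 21.9 to 6.14 and 5.58 CPM (log2 fold change −1.96, SE 0.15, adjusted p = 4.79e-05). Adamts2, which trims procollagen, rose from 8.65 and 8.55 to 55.3 and 48.5 CPM (log2 fold change 2.59, SE 0.15, adjusted p = 1.44e-05), and the metalloprotease Adam19 from 42.1 and 37.9 to 125 and 128 CPM (log2 fold change 1.66, SE 0.14, adjusted p = 7.78e-05).

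Among secreted signals, the BMP pathway held 6 rises and 0 falls in 24 genes (median 0.68, 0.21 with the offsets). The ligand Bmp4 rose from 8.42 and 7.22 to 60.1 and 66.0 CPM (log2 fold change 3.01, SE 0.23, adjusted p = 6.07e-05). Antagonists rose beside it: Grem1 from 51.8 and 57.6 to 132 and 192 CPM (log2 fold change 1.57, SE 0.22, adjusted p = 0.00147) and Bmper by 1.39 (SE 0.16). The targets Smad6, an inhibitory Smad, and Id2 rose by 1.53 (SE 0.15) and 0.98 (SE 0.18). The rises thus covered a ligand, antagonists and targets. Of 26 TGF-beta and activin genes 3 rose and 1 fell. The ligands split, with Tgfb1 lower (179.5 and 179 to 76.7 and 50.7 CPM, log2 fold change −1.49, SE 0.26, adjusted p = 0.00414) and Tgfb3 higher (61.9 and 60.7 to 140.5 and 119 CPM, log2 fold change 1.08, SE 0.13, adjusted p = 0.000597). Fst, follistatin, the activin and myostatin antagonist, rose by 1.55 (SE 0.25) and the co-receptor Tgfbr3 by 1.86 (SE 0.33).

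In the Wnt list 5 of 43 genes rose and 1 fell (median 0.49, 0.63 with the offsets). The fall was that of a ligand, Wnt7b, from 10.0 and 8.78 to 0.251 and 0.361 CPM (log2 fold change −4.91, SE 0.37, adjusted p = 4.55e-05). Rises were mostly in secreted inhibitors: Sfrp2 from 2.64 and 1.39 to 30.3 and 27.3 CPM (log2 fold change 3.83, SE 0.31, adjusted p = 7.21e-05), Sfrp1 by 3.21 (SE 0.48), Dkk2 by 1.90 (SE 0.33) and Notum, which inactivates Wnt ligands, by 2.00 (SE 0.31). The receptor Fzd1 rose from 41.4 and 39.8 to 91.9 and 98.5 CPM (log2 fold change 1.23, SE 0.18, adjusted p = 0.00175). Of 19 Notch genes 3 fell, the ligand Jag2 (−1.52), the Notch modulator Dtx4 (−1.002) and Hes6 (−1.58), and Maml2, a co-activator, rose (1.23). In the Hedgehog list of 13 the co-receptors Boc and Gas1 (0.95, SE 0.16) rose and Hhip, the decoy receptor, fell (14.7 and 17.7 to 2.31 and 3.51 CPM, log2 fold change −2.47, SE 0.27, adjusted p = 0.000303; −3.46 with the offsets).

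Growth factor genes moved in both directions. Of 26 IGF and PDGF genes 6 fell and 3 rose. Of 6 IGF binding proteins tested 3 fell: Igfbp2, Igfbp5 from 94.1 and 81.7 to 28.5 and 29.7 CPM (log2 fold change −1.59, SE 0.17, adjusted p = 0.000284), and Igfbp3 (−1.49, SE 0.27). Igfbp4 (0.82) and Igfbp7 (0.67) were called higher and Igfbp6 (−0.88) lower, none of them in all 6 fits. Pappa, a protease that frees IGF from binding proteins, fell (−2.37, SE 0.31). Pdgfra, the receptor of mesenchymal progenitors, rose from 9.10 and 7.22 to 33.1 and 39.3 CPM (log2 fold change 2.15, SE 0.22, adjusted p = 0.000218). Among 28 FGF and ERK genes Egfr rose from 16.5 and 14.3 to 50.7 and 54.5 CPM (log2 fold change 1.77, SE 0.16, adjusted p = 0.00014), Fgf10 by 2.07 (1.29 with the offsets) and Spry1, a feedback inhibitor, from 0.842 and 0.809 to 7.69 and 8.83 CPM (log2 fold change 3.31, SE 0.30, adjusted p = 0.000131). Of 32 genes around YAP and TEAD 5 rose and 3 fell. The factor Tead2 fell from 198 and 206 to 59.2 and 52.5 CPM (log2 fold change −1.86, SE 0.17, adjusted p = 0.000118) and Wwc1, an upstream scaffold, fell too (−2.46, SE 0.22), whereas the TEAD cofactor Vgll3 rose by 1.78 (0.94 with the offsets) and the target Crim1 by 1.64 (SE 0.18).

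Immediate early genes are switched on within minutes of a stimulus and include the subunits of AP-1. Of 30 tested 5 fell and 0 rose, while the median had the other sign, at 0.15 and 0.53 with the offsets. Called higher were 5 and lower 7, and with the offsets 14 and 9. The shares over all tested genes were 15.5% and 14.0%, and 17.4% and 18.1% with the offsets. Among subunits of AP-1, Jund fell from 298 and 307 to 141 and 106 CPM (log2 fold change −1.30, SE 0.21, adjusted p = 0.00293) and Jun was level (170.3 and 172 against 168 and 159.8 CPM, log2 fold change −0.06, SE 0.13, adjusted p = 0.72). Fosl1 was called lower (log2 fold change −0.89, SE 0.18, adjusted p = 0.0069) and Fosl2 higher (log2 fold change 0.65, SE 0.12, adjusted p = 0.0054), neither in all 6 fits. Atf3, a stress-induced partner, fell from 7.69 and 8.32 to 1.66 and 0.775 CPM (log2 fold change −2.71, SE 0.33, adjusted p = 0.000607; −3.29 without Baf250A replicate 1), and Egr1 from 126 and 129 to 60.1 and 72.4 CPM (log2 fold change −0.94, SE 0.13, adjusted p = 0.00142). Of 37 genes of ATF4 and the unfolded protein response 4 fell, Atf3, Trib3 (−2.15), Chac1 (−1.998) and Xbp1 (−0.78), and Cebpb rose (0.84). Trib3 and Chac1 are targets of ATF4 in amino acid shortage. Of 39 genes of glycolysis and hypoxia, Pfkp, a phosphofructokinase, fell from 86.2 and 84.1 to 21.0 and 18.7 CPM (log2 fold change −2.10, SE 0.18, adjusted p = 9.94e-05), and Hk1, hexokinase (−1.15, SE 0.19), and Ndrg1 (−1.27, SE 0.13) fell too. Adm and Epas1, both hypoxia-linked and both under 3 CPM, rose by 3.07 (2.46 and 4.17 without a scramble library) and 3.60 (2.61 and 8.56).

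Adhesion, fat and positional genes were tested as well. Of 16 integrins 3 rose and 1 fell: the collagen receptor Itga11 rose from 2.02 and 1.33 to 15.8 and 12.7 CPM (log2 fold change 3.08, SE 0.26, adjusted p = 8.29e-05), Itga1 by 3.54 (2.82 with the offsets, 5.37 without scramble replicate 1 and 2.77 without scramble replicate 2) and Itgb4 by 1.60 (SE 0.28), and Itga7 fell. Among 20 cadherins and catenins Cdh11, the cadherin of mesenchyme, rose from 12.8 and 12.4 to 35.8 and 43.7 CPM (log2 fold change 1.65, SE 0.25, adjusted p = 0.00183) and Jup, plakoglobin, fell from 122 and 121 to 38.2 and 27.4 CPM (log2 fold change −1.88, SE 0.19, adjusted p = 0.000219), beside the fall of Cdh15. The cadherin of mesenchyme was thus higher and that of myoblasts lower. Of 10 adipogenic markers 4 rose, Lpl and the 3 C/EBP factors Cebpa (7.36 and 5.89 to 23.5 and 22.3 CPM), Cebpd (14.4 and 13.3 to 60.8 and 53.6 CPM) and Cebpb, and 2 fell, the lipid droplet genes Plin4 (−1.68) and Lipe (−1.58). Of 19 HOX genes none passed all 6 fits. In the first fit 1 was called higher and 3 lower, and with the offsets 4 and 2. Over all tested genes 15.5% were called higher and 14.0% lower, and 17.4% and 18.1% with the offsets. Their median was 0.32, and 0.49 with the offsets, and 13 of the 19 had a positive value in the first fit.

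Lists of growth and basic metabolism had shares near or below the 2.96% and 4.28% of all tested genes. Of 79 ribosomal protein genes and 76 oxidative phosphorylation genes none rose or fell in all 6 fits. With the offsets 4 ribosomal protein genes were called higher and 3 lower, and 6 oxidative phosphorylation genes higher and 1 lower. Of 52 DNA replication genes 1 rose, of 57 mitosis genes 2 rose (Kif18a, 2.50 and 1.35 with the offsets, and Smc2, 1.74 and 0.61), of 54 ribosome biogenesis genes 1 rose (Ncl, nucleolin, 1.19 and 0.41 with the offsets) and of 37 polycomb and trithorax genes 1 rose. Of the mitosis genes 24 were called higher and 2 lower, and 13 and 2 with the offsets, and their median moved from 0.21 to −0.02. All tested genes had 15.5% called higher and 14.0% lower, and 17.4% and 18.1% with the offsets. Among cell cycle regulators Ccne1, cyclin E1, fell from 89.3 and 87.9 to 43.8 and 41.9 CPM (log2 fold change −1.05, SE 0.14, adjusted p = 0.00102) and Ccne2, cyclin E2, rose from 8.59 and 11.5 to 29.5 and 53.9 CPM (log2 fold change 2.05, SE 0.33, adjusted p = 0.00277; 0.58 with the offsets). Ccnd1, cyclin D1, had 526 and 498 against 450.0 and 460.4 CPM (log2 fold change −0.17, SE 0.13, adjusted p = 0.328), Myc 107 and 109 against 128 and 125 CPM (log2 fold change 0.23, SE 0.13, adjusted p = 0.199), and Cdkn1a, the inhibitor p21, 223 and 226 against 226 and 194 CPM (log2 fold change −0.10, SE 0.14, adjusted p = 0.619). With the offsets Cdkn1a turned to 0.22 (adjusted p = 0.0489) and Myc to 0.53 (adjusted p = 0.0176). Mycl, a Myc family factor outside these lists, fell from 9.66 and 10.1 to 1.26 and 0.981 CPM (log2 fold change −3.13, SE 0.23, adjusted p = 4.55e-05).

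Markers of other cell types were low or at 0 for the most part. Of 16 endothelial, 17 macrophage and leukocyte, 16 epithelial and 16 glial markers, 3, 4, 6 and 6 passed the filter on low counts. The endothelial Tie1, Emcn, Cldn5 and Erg, the leukocyte Adgre1, Itgam and Cd3e, the epithelial Epcam and Krt5 and the glial Olig1 and Olig2 had 0 counts in all 4 libraries. Other members were expressed in both groups. The glial Pmp22 had 1506 and 1323 counts in the scramble and 1601 and 1537 in the Baf250A libraries. Krt14 had 329 and 304 against 396 and 287, Krt19 85 and 79 against 178 and 136, and Cd14 267 and 289 against 191 and 141. The summed level of macrophage and leukocyte markers was 17.7 and 19.6 CPM in the scramble and 12.9 and 9.71 CPM in the Baf250A libraries, and that of endothelial markers 8.70 and 7.398 against 9.40 and 6.61 CPM. Epithelial markers summed to 24.7 and 24.0 against 32.8 and 24.9 CPM, and glial markers to 119.7 and 110.2 against 141 and 147 CPM. Of these lists 3 members rose and none fell: Sox18 with 4 and 3 counts in the scramble and 58 and 30 in the Baf250A libraries, Krt7 with 2 and 6 counts against 70 and 48, and Pdgfra, which mesenchymal cells express too. The part of such cells in the results was not tested.

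**Figure D4:**
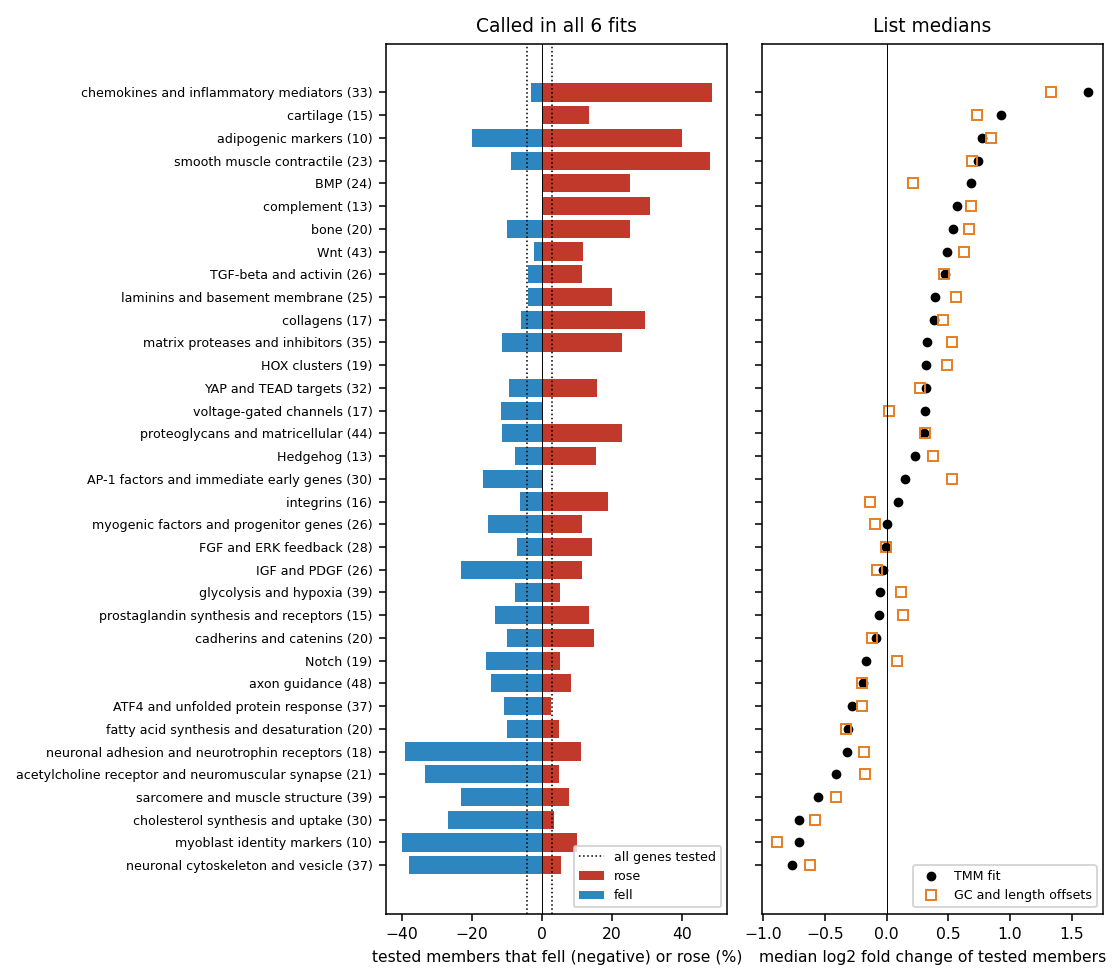
Left, the percentage of tested members of 35 gene lists that rose (red) or fell (blue, negative) in all 6 fits, with dotted lines at the 2.96% and 4.28% of all genes tested and the number tested in brackets. Right, the median log2 fold change of each list without (black) and with (open orange) the GC and length offsets, where the inflammatory list stands highest in both fits, and the neuronal cytoskeleton list lowest without and the myoblast identity list lowest with the offsets.

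The fold changes followed the GC content of transcripts. Across the 12290 tested genes with a GC value (98.95%), which are not independent replicates, Spearman's rho between log2 fold change and GC content was −0.53, and 0.04 with the offsets. The tested genes were split into 10 bins of equal size by GC content. In the lowest bin (33.2 to 42.3%) the median log2 fold change was 0.94, and 50.4% were called higher and 1.30% lower. In the highest bin (58.5 to 72.8%) it was −0.38, and 4.64% were called higher and 27.7% lower. With the offsets the 2 medians were −0.02 and 0.03. The trend was present in each library pair and steeper in Baf250A replicate 2, with rho of −0.61 and −0.62 against the scramble libraries, than in Baf250A replicate 1, with −0.39 and −0.41. It also separated the 2 Baf250A libraries from each other, at a rho of −0.76, and hardly the 2 scramble libraries, at −0.08. The genes that fell in all 6 fits still had a higher median GC content (54.5%) than the tested genes (50.5%), and those that rose a lower one (48.3%). Of the 3669 genes called, 2704 (73.7%) were called in the same direction with the offsets, 143 had the other sign and 12 were called in the other direction. The cause of the trend was not tested. Genes that rose or fell keep their direction and call with the offsets by definition, so only the size of their change can differ. Values without and with the offsets were −4.24 and −4.51 for Chrna1, −4.48 and −4.45 for Nefl, and 1.38 and 1.44 for Acta2. They were −1.83 and −1.55 for Fdps and 1.64 and 1.87 for Csf1. Ptgs2, Cxcl5, Pi15, Ccne2 and Smc2 (1.74 and 0.61) had smaller values with the offsets, as given.

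**Figure D5:**
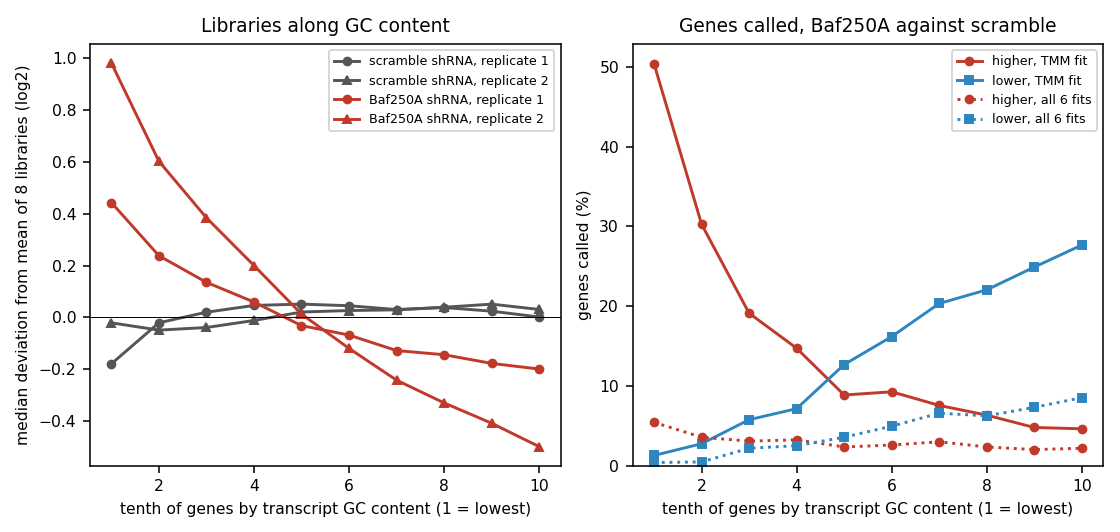
Left, the median deviation of each scramble and Baf250A library from the mean of the 8 libraries (log2) in 10 bins of genes by transcript GC content. Right, the percentage of genes called higher or lower in each bin, in the first fit (solid) and in all 6 fits (dotted): the share called higher runs from 50.4% at the lowest to 4.64% at the highest GC content, and that called lower from 1.30% to 27.7%.

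The Brd9 and Baf180 libraries allow a comparison with knockdowns of other forms of the complex. Their comparisons with scramble use the same scramble libraries, so only direct tests between knockdowns are given. These tests are from the fit without offsets. Along GC content the Baf180 libraries ran opposite to the Baf250A libraries. Median log2 deviations from the mean of the 8 libraries were −0.98 and −0.64 with Baf180 shRNA in the lowest GC bin. They were 0.44 and 0.98 with Baf250A shRNA. In the highest bin they were 0.67 and 0.29 against −0.20 and −0.50. How far this trend enters the differences from Baf180 was not tested. Against the mean of the Brd9 and Baf180 groups 3250 genes were called higher (26.2%) and 3209 lower (25.8%). Chrna1 had 304 and 325 CPM in the Brd9 and 313 and 269 CPM in the Baf180 libraries, and was lower in the Baf250A libraries than in either (log2 difference −4.30, SE 0.15, adjusted p = 2.3e-06 against Brd9; log2 difference −4.19, SE 0.15, adjusted p = 2.82e-06 against Baf180). Tubb3 had 122 and 149 CPM with Brd9 and 128 and 86.7 CPM with Baf180 shRNA and differed likewise (log2 difference −3.52, SE 0.21, adjusted p = 2.61e-05; log2 difference −3.18, SE 0.21, adjusted p = 2.65e-05). Igfbp2 had 630.0 and 691 CPM with Brd9 and 256 and 188 CPM with Baf180 shRNA (log2 difference −4.47, SE 0.20, adjusted p = 7.78e-06; log2 difference −2.89, SE 0.18, adjusted p = 2.36e-05). In these 3 genes both Baf250A libraries lay below all 6 other libraries. They did so in 2404 of the 12420 genes tested, and lay above all 6 in 2099. Igfbp2 was lower in the Baf180 than in the scramble libraries too. Actn3 (log2 difference −3.64 against Brd9 and −2.99 against Baf180) and Stmn2 (−2.49 and −2.17) were lower too, with adjusted p-values from 2.32e-05 to 3.79e-05. Among the rises, Lrrc32 had 8.24 and 9.43 CPM in Brd9 and 9.33 and 8.24 CPM in the Baf180 libraries (log2 difference 3.34, SE 0.17, adjusted p = 1.74e-05; log2 difference 3.35, SE 0.18, adjusted p = 1.64e-05), and U90926 4.65 and 5.55 CPM with Brd9 and 4.99 and 2.18 CPM with Baf180 shRNA (log2 difference 4.23, SE 0.31, adjusted p = 4.58e-05; log2 difference 4.74, SE 0.32, adjusted p = 3.14e-05). Ccl2 (68.0 and 48.7 CPM with Brd9 and 38.7 and 46.3 CPM with Baf180 shRNA) was higher in the Baf250A libraries by 2.20 and 2.65 (adjusted p = 0.000222 and 5.69e-05), and Il6 by 2.27 and 3.56 (adjusted p = 0.0343 and 0.00327).

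For Nefl, Ngfr, L1cam, Acta2 and Sfrp2 a Brd9 or Baf180 level was as far from scramble or farther, or not called different from Baf250A. Nefl was lower in the Baf180 libraries (1.62 and 2.35 CPM) than in the Baf250A libraries (log2 difference 2.54, SE 0.19, adjusted p = 4.46e-05), and lay between in the Brd9 libraries (48.7 and 52.4 CPM). Ngfr had 0.464 and 0.491 CPM and L1cam 1.04 and 1.47 CPM in the Baf180 libraries, differences from Baf250A that were not called (log2 difference 0.16, SE 0.45, adjusted p = 0.769 for Ngfr and log2 difference 0.49, SE 0.29, adjusted p = 0.161 for L1cam). Acta2 reached 10403 and 8281 CPM in the Baf180 libraries (log2 difference −0.21, SE 0.17, adjusted p = 0.307) and Sfrp2 83.0 and 53.7 CPM in the Brd9 libraries, above the Baf250A level (log2 difference −1.25, SE 0.25, adjusted p = 0.00702). Fdps and Lss of the cholesterol pathway were lowest in the Baf250A group: Fdps had 147 and 178 CPM in the Brd9 and 438 and 293 CPM in the Baf180 libraries (log2 difference −1.41, SE 0.20, adjusted p = 0.00128; log2 difference −2.59, SE 0.20, adjusted p = 4.64e-05), and Lss 38.0 and 37.3 CPM with Brd9 and 61.6 and 57.3 CPM with Baf180 shRNA (log2 difference −1.07, SE 0.13, adjusted p = 0.000628; log2 difference −1.73, SE 0.13, adjusted p = 4.64e-05).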

How the data were processed

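RNA-seq libraries of C2C12 myoblasts, 2 for each of 4 groups, were analysed from the deposited table of estimated counts per gene, which the authors made from the reads without normalisation. Per the submitters' processing notes the build was mm10 and the tools RSEM, Bowtie2, HISAT2, StringTie, Cufflinks and DESeq2, without roles. Versions and strandedness are not given in the sources used, so overlapping genes on opposite strands are uncertain. A further column is another value, the gene's length in bases, per the file headers. Of 24573 genes 24479 were named by gene ID and 9 by accession in a RefSeq table of GRCm38, and 85 were not matched.

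Counts were rounded, filtered by filterByExpr (12420 genes kept), scaled by TMM (factors 0.846 to 1.12) and fitted for all 8 libraries and 4 groups by glmQLFit and glmQLFTest of edgeR 4.0.16 under R 4.3.3, with Benjamini-Hochberg adjustment within a comparison. The standard error is the log2 fold change over the square root of F. Offsets were loess fits (span 0.3) of each library's deviation to the GC content of GENCODE M21 transcripts, then to length. Totals of 17763062 to 20400855 counts set the floor of 3 counts per library, used for genes at 0; exact intervals cover counting error only. The fits were also run on simulated counts with known changes, whose outcome is not reported here. The simulated trend was made from the same offsets, so it cannot show whether they suit the real trend. Alternatives were RLE and upper-quartile scaling, other filters, DESeq2 1.42.0, a replicate block, a fold threshold and each library left out. Promoters came from RefSeq and 9886 of 12420 tested genes had one.

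Named genes are the SWI/SNF subunits, the 12 largest rises and falls with a mean of at least 5 CPM (unnamed models passed over), up to 4 members with the lowest p and any at 0 in each list described, and a short fixed set. Lists were described where at least 10 members were tested and the share called in all 6 fits was at least 1.5 times that of all genes, or the median reached 0.3 in size in both fits. Some list members are counted but not reported here by name. Further members of lists were chosen after their values were seen. The comparison, lists and rules were chosen with earlier results of these data known.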

Additional observations from a re-analysis of the deposited data

How the results depend on the processing

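The 3669 calls became 3712 with RLE scaling, 3786 with upper-quartile scaling, 3799 with DESeq2, 4414 with the GC and length offsets and 4711 with no filter, and 1032 when tested against a fold change of 1.5. With 1 library left out they ranged from 1171 (without scramble replicate 1) to 3721 (without Baf250A replicate 1), with 1524 without scramble replicate 2 and 1281 without Baf250A replicate 2. Higher genes were 1926 of 3669 with TMM, 2117 of 3712 with RLE and 1867 of 3786 with upper-quartile scaling. The 899 genes called in all 6 fits became 597 when the mean had to reach 5 CPM and 1483 with only the 4 libraries compared, and 595 and 876 of the 899 were among them; the cause was not tested, though the first tests fewer genes. The median log2 fold change over all genes was −0.0175 with TMM, 0.0085 with RLE and −0.0432 with upper-quartile scaling. The 6459 calls against the mean of the other knockdowns became 3386 without Baf250A replicate 2 and 5745 without Baf250A replicate 1, and 6670 with the offsets, an alternative chosen after seeing the data. The rho with GC content was 0.0391 with the offsets, by their construction, and −0.3885 for Baf250A replicate 1 against scramble replicate 1 alone. Arid1a kept its direction and call under the 15 alternatives run. Of the genes named, Cdkn1a alone changed sign with a call in either fit, to 0.2166 with the offsets. Uncalled genes near 0, such as Jun, Hmgcs1 and Myog, changed sign without a call. The median of a list changed sign in 1 of 35 lists with either scaling and in 5 with the offsets, in none of those with a median of at least 0.3 in size.

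Replicate numbers are shared between groups in the labels, which give them no meaning. The differences between replicates 1 and 2 of the scramble and Baf250A groups correlated across genes at 0.123, and at 0.0608 after the offsets. With replicate number as a block the 3669 calls became 3020, or 4000 together with the offsets, and the 899 became 541, of which 534 were among the 899.

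Groups of 2 libraries limit the precision of each value, and depth limits genes near the floor of 3 counts, such as Msc, Tnfsf11, Stmn4, St8sia2, Crmp1 and Map2, whose fitted fold changes depend on the prior count.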
